A study of Rattus rattus with 8 samples.

Results

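Amino acid transporters are membrane proteins that carry amino acids and related small molecules into and out of cells and organelles. They fall into solute carrier (Slc) families, and the members here were all gene symbols of the array's probe table that start with Slc1a, Slc3a, Slc6a, Slc7a, Slc36a, Slc38a or Slc43a, except Slc1a2 and Slc7a11. That rule gave 58 of the 16945 genes on the array, and 32 of the 58 lay far enough above the detection floor to be tested. Livers came from 8 male rats of the WH background, organism given as Rattus rattus. The 4 NaPB rats ate a diet with 2500 ppm sodium phenobarbital (NaPB) for 7 days and the 4 control rats a diet with 0 ppm over the same time. Sodium phenobarbital, a barbiturate, acts on rodent liver through the nuclear receptor CAR and enlarges the organ. No age or genotype beyond the WH background was given. Total RNA of each liver was labelled with Cy3 and hybridized to an Agilent single-colour array, 1 array per rat.

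Hepatocytes take up amino acids from portal blood for protein synthesis, glucose production, urea formation and glutamine exchange. The Slc38 family holds sodium-coupled carriers of small neutral amino acids and of glutamine. Slc7 carriers of large neutral and cationic amino acids mostly work as light chains bound to a heavy chain of the Slc3 family, which brings them to the cell surface. Slc6 carriers move glycine, GABA, taurine, betaine and creatine with sodium and chloride, Slc1 carriers move glutamate or small neutral amino acids, Slc36 carriers are driven by protons, and Slc43 carriers work by facilitated diffusion. The prefix rule also takes in genes that carry something else: Slc6a2, Slc6a3 and Slc6a4 encode carriers of monoamine transmitters. Slc7a6os is no transporter at all and is named for lying on the strand opposite to Slc7a6.

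Pairwise correlations across all features were 0.977 to 0.984 among NaPB arrays, 0.981 to 0.989 among control arrays, and 0.973 to 0.984 between the diets. The number of arrays limits the precision. Values below are scaled intensities, which are the spot signals divided by the 75th percentile of named features on the same array, with features of a gene averaged on the log2 scale. Values under 0.03 were set to 0.03, the floor. Probes differ in brightness, so intensities are compared between diets for 1 gene and not between genes. All 8 hepatocyte markers, such as Alb and Ttr, were above the floor.

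With NaPB, 1 amino acid transporter gene rose and 2 fell. Slc3a2, the heavy chain that partners the carriers of large neutral amino acids, rose. Slc38a3, a glutamine carrier, and Slc6a13, a carrier of GABA and taurine, fell. The other 29 tested members did not pass the test, a limma fit across all genes with an adjusted p under 0.05. Called members were 9.38% of the 32 tested, against 10.5% of all 10944 genes tested, of which 6.16% were higher and 4.29% lower with NaPB. The share of called members was thus near the background. With arrays shifted to a common median, 41.3% of all called genes were higher, in place of 58.9%.

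The rats of the diets did not overlap in 7 of the 32 tested members, or 21.9%, against 19.1% of all genes tested. These were Slc3a1, Slc3a2 and Slc6a11 on the higher side, where 10.8% of all genes stood, and Slc38a3, Slc38a4, Slc43a3 and Slc6a13 on the lower side, where 8.36% stood. Of the 32, 4 entered the test through 1 diet alone, Slc6a11, Slc7a4 and Slc7a9 through the NaPB rats and Slc7a6 through the control rats. Entry of this kind favours a difference toward that diet. Among the other 28 members the diets did not overlap in 6, and the same 3 were called. At an unadjusted p under 0.05 in limma stood 11 of the 32 tested members, against 2937 of all 10944 genes tested, or 26.8%. The log2 difference between NaPB and control had a median of 0.03 over tested members and of 0.0015 over all genes tested, and 17 members were positive and 15 negative. The median size of the difference, whatever its sign, was 0.14 over members and 0.16 over all genes.

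**Figure D1:**
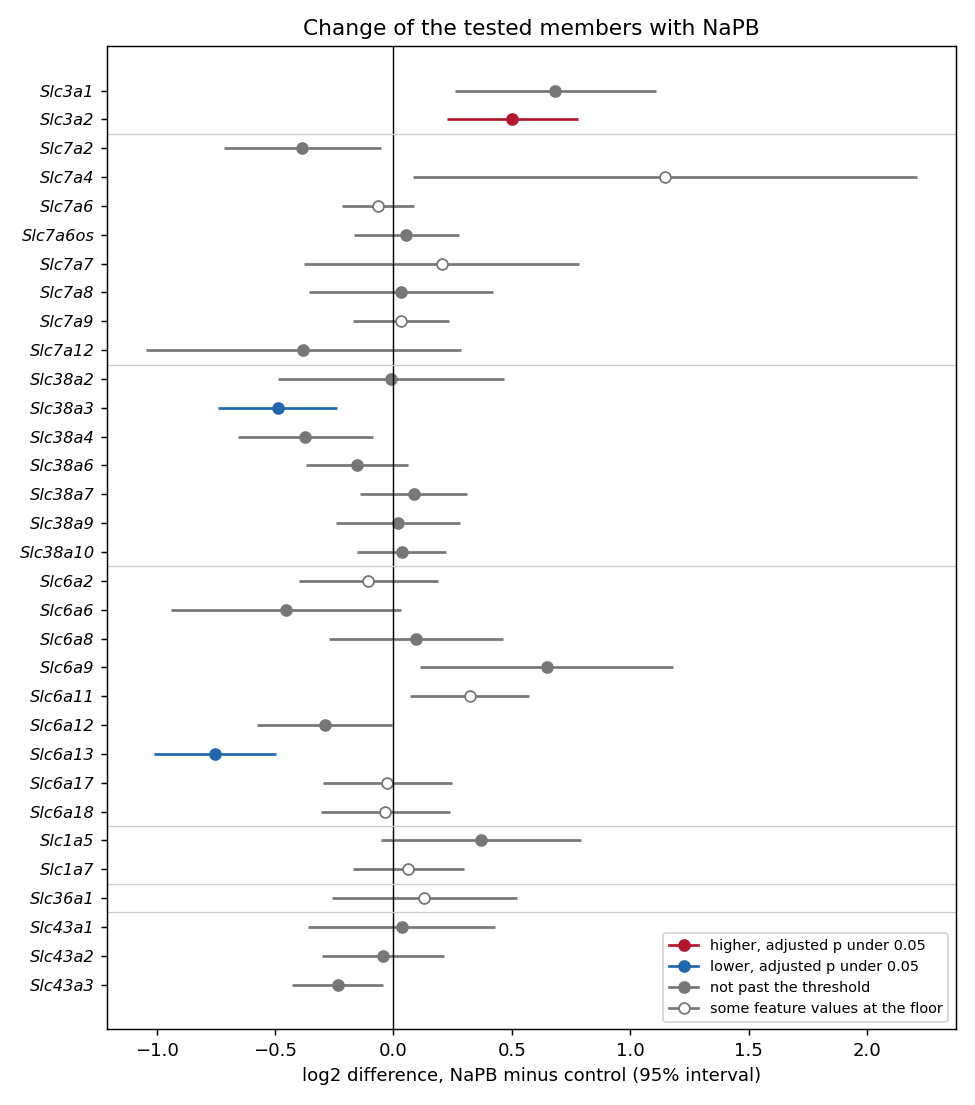
Log2 difference between NaPB and control rats (x axis, points) with its 95% interval from limma (bars) for the 32 tested members (y axis), ordered by family. Slc3a2 (red) rose and Slc38a3 and Slc6a13 (blue) fell, and hollow points mark members with feature values at the floor, whose differences depend on where the floor lies.

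Of the heavy chains, Slc3a2 rose and Slc3a1 did not pass the test. Slc3a2 had scaled intensities of 3.23, 3.50, 2.55 and 3.54 in the NaPB rats, against 2.32, 2.00, 2.47 and 2.21 in the control rats. Every NaPB rat lay above every control rat, with the lowest NaPB value, 2.55, close to the highest control value, 2.47. The log2 difference was 0.50 ± 0.12 (here and below SE from limma, n = 4 rats per group), a fold of 1.42, with an adjusted p of 0.0346. Its 2 features differed by 0.50 and 0.51. The call was lost without any array other than NaPB replicate 3 and control replicate 3, with adjusted p up to 0.0943, while the difference stayed between 0.45 and 0.61. Liver RNA was measured as a whole, so fewer cells of a type and less RNA per cell cannot be told apart here or below.

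Slc3a1, the heavy chain of the cystine and dibasic amino acid carrier, had values of 0.0673, 0.0742, 0.0606 and 0.102 in NaPB rats, against 0.0423, 0.0497, 0.0586 and 0.0377 in control rats. The diets did not overlap, but the values lay within a few fold of the floor and the gene just missed the threshold, at 0.68 ± 0.19 (adjusted p = 0.0515). Without NaPB replicate 3 or control replicate 3 it passed (adjusted p = 0.0487 and 0.0444). Its light chain partner Slc7a9 entered the test through the NaPB rats alone. It had 33 of 40 feature values in NaPB rats and 32 of 40 in control rats at the floor, which leaves no sized difference.

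Of the light chains that Slc3a2 carries, Slc7a8, for large and small neutral amino acids, lay clear of the floor in every rat. It had values of 0.295, 0.249, 0.336 and 0.209 in NaPB rats, against 0.239, 0.278, 0.220 and 0.324 in control rats. These overlapped throughout, at 0.03 ± 0.17, with an interval from -0.36 to 0.42. Slc7a5, the light chain for large neutral amino acids in growing cells, was above the floor on 1 of 8 arrays, that of NaPB rat 3 at 0.0408, and was not tested. Slc7a6 and Slc7a7, which exchange cationic for neutral amino acids, were also close to the floor, and Slc7a6 had 39 of 40 feature values in NaPB rats and 29 of 40 in control rats at it. Slc7a7 reached 0.0701 in NaPB rat 3, while its other NaPB values lay between 0.0306 and 0.0333. Of the light chains named here, Slc7a8 had no feature value at the floor.

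Among cationic carriers, which need no heavy chain, Slc7a2, a carrier of arginine and lysine in liver, had values of 0.390, 0.303, 0.329 and 0.240 in NaPB rats, against 0.448, 0.421, 0.402 and 0.359 in control rats. NaPB rat 1 overlapped the control range, and the gene did not pass, at -0.38 ± 0.15 (adjusted p = 0.132). Slc7a1 and Slc7a3 were at the floor on every array. Slc7a4, a relative of these carriers, entered the test through the NaPB rats alone, and 7 of its 8 control feature values were at the floor, which leaves no sized difference. Of its 2 features, 1 was at the floor in all rats. The other read 0.210, 0.448, 0.0407 and 0.743 in NaPB rats, against 0.183 in control rat 1 and the floor in the other control rats. Its highest values were all from NaPB rats, yet NaPB rat 3 lay below control rat 1.

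Slc7a12, a light chain relative, had values between 0.146 and 0.318 in NaPB rats and between 0.205 and 0.400 in control rats, and was at -0.38 ± 0.29. Slc7a6os was at 0.05 ± 0.10, with an interval from -0.17 to 0.28. Slc7a10, Slc7a13 and Slc7a14 were at the floor on every array, and Slc7a15 was above it on 2 arrays. Of the 15 Slc7a members, 8 were tested and none passed by limma, with 2 at an unadjusted p under 0.05. Among all genes tested, 10.5% passed and 26.8% were at that unadjusted p.

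**Figure D2:**
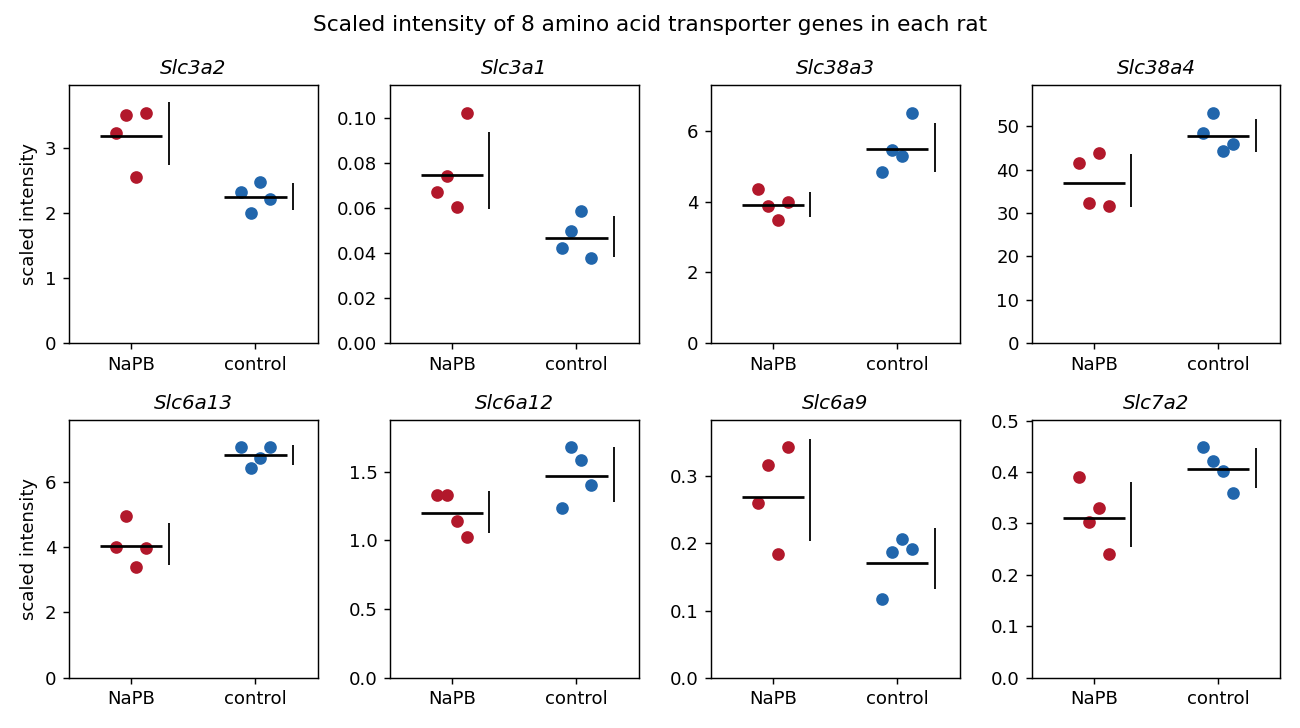
Scaled intensity (y axis, linear, each gene on its own scale from 0) of 8 members in each NaPB rat (red) and control rat (blue). Horizontal lines are means and vertical lines 1 SD either way, both taken on the log2 scale, and the diets do not overlap in Slc3a2, Slc3a1, Slc38a3, Slc38a4 and Slc6a13 but do in Slc6a12, Slc6a9 and Slc7a2.

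In the Slc38 family 1 of 7 tested members, Slc38a3, fell and none rose. That is 14.3% called, against 10.5% of all genes tested. Slc38a3, which exchanges glutamine, asparagine and histidine with blood in either direction, had values of 4.34, 3.89, 3.47 and 3.98 in NaPB rats, against 4.82, 5.45, 5.30 and 6.52 in control rats. All NaPB rats lay below all control rats. The log2 difference was -0.49 ± 0.11, a fold of 0.712 (adjusted p = 0.0267). Its 10 features gave differences from -0.57 to -0.37, and in 7 of them the diets did not overlap. The call was lost without NaPB replicate 2, 3 or 4 or control replicate 2 or 3 (adjusted p up to 0.0684), with differences between -0.55 and -0.41 over all single omissions.

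Several markers of perivenous hepatocytes, the cells around the central vein, were lower in the same livers. Of 7 such markers 6 were tested, 4 fell and none rose, where 4.29% of all genes tested were lower. Rhbg and Tbx3 were tested and did not pass, at 0.59 ± 0.30 and 0.07 ± 0.27. The summed scaled intensity of the 7 was 74.1 to 84.2 in NaPB rats, against 132.6 to 146.6 in control rats. Most of that sum was Cyp2e1, at 65.2 to 74.1 in NaPB rats and 104 to 111 in control rats. Periportal markers also summed lower, as given below. The glutamine synthetase gene Glul had values of 0.889, 1.20, 0.923 and 1.08 in NaPB rats, against 2.31, 3.53, 4.03 and 3.13 in control rats. Lgr5 was at the floor in every rat. The markers' part in the fall of Slc38a3 was not tested.

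Slc38a4, a sodium-coupled carrier of small neutral amino acids prominent in liver, had values of 41.5, 32.4, 43.8 and 31.7 in NaPB rats, against 48.4, 53.2, 44.3 and 45.9 in control rats. The diets did not overlap, with NaPB rat 3 and control rat 3 close together, and the gene did not pass, at -0.37 ± 0.13 (adjusted p = 0.0970). After quantile normalization it passed (adjusted p = 0.0493). Slc38a2, a carrier of the same substrates that cells raise when amino acids run short, had values of 1.06, 1.20, 0.798 and 1.20 in NaPB rats, against 1.04, 1.49, 1.05 and 0.756 in control rats. The difference was -0.01 ± 0.21, and its interval from -0.49 to 0.47 includes the difference measured in Slc38a4. Slc38a1, the third carrier of this kind, was at the floor on every array.

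Neither tested lysosomal carrier of the Slc38 family passed the test. Slc38a9, which senses arginine in the lysosome for the growth kinase mTORC1, had values of 0.109, 0.116, 0.0832 and 0.0995 in NaPB rats, against 0.0963, 0.0968, 0.112 and 0.0954 in control rats. Slc38a7, which exports glutamine from lysosomes, had values of 0.630, 0.585, 0.743 and 0.615 in NaPB rats, against 0.628, 0.584, 0.664 and 0.545 in control rats. Both overlapped, at 0.02 ± 0.11 and 0.09 ± 0.10. Slc38a10 was the most tightly measured of the family, with values of 1.98, 2.10, 1.82 and 2.09 in NaPB rats, against 2.12, 2.00, 1.89 and 1.80 in control rats. Its difference of 0.04 had an interval from -0.15 to 0.22. Slc38a6 was at -0.15 ± 0.09. Slc38a8 and Slc38a11 were at the floor on every array, and Slc38a5, a second glutamine carrier of the type of Slc38a3, was above it on 2 arrays, both of control rats.

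**Figure D3:**
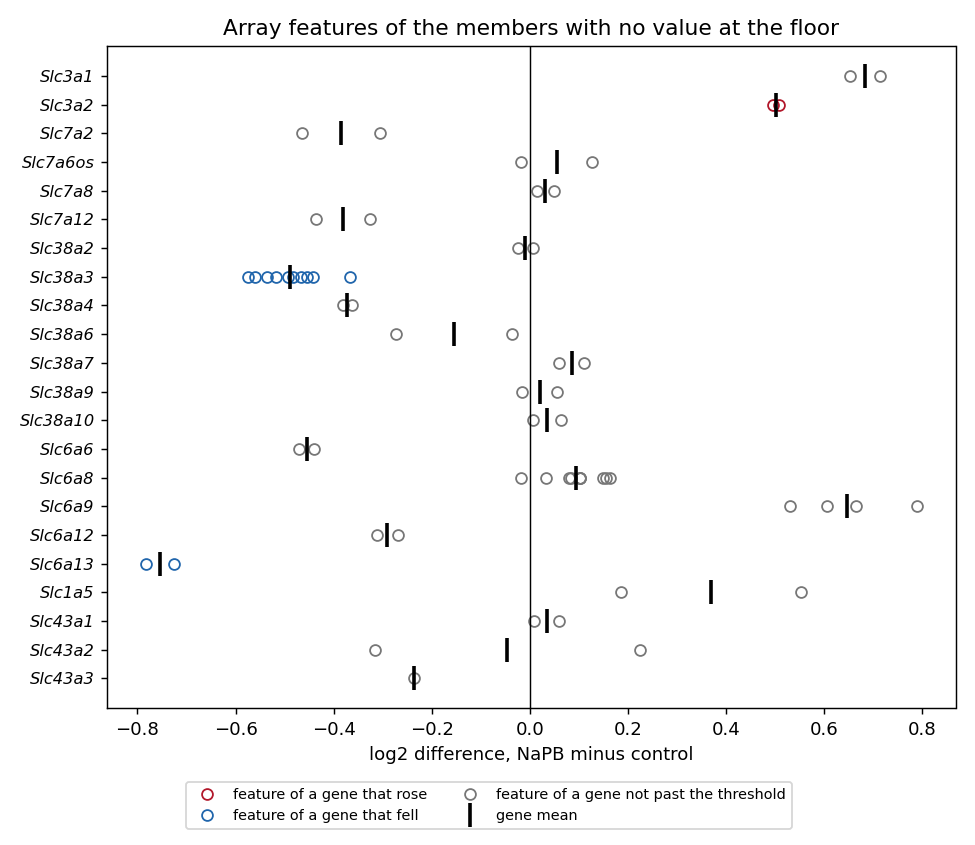
Log2 difference between NaPB and control rats (x axis) for each array feature (circles) of the 22 tested members with no value at the floor (y axis), with the gene mean as a vertical bar. The features of Slc3a2, Slc38a3 and Slc6a13 lie close together on 1 side of 0, whereas the 2 features of Slc43a2 lie on opposite sides.

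Slc6a13 showed the largest fall of the tested members and the lowest adjusted p. It had values of 4.00, 4.96, 3.38 and 3.97 in NaPB rats, against 7.05, 6.43, 6.73 and 7.05 in control rats. The highest NaPB value lay well below the lowest control value, and both features separated the diets. The log2 difference was -0.75 ± 0.11, a fold of 0.593 (adjusted p = 0.00497). This call held in all 17 alternative settings, with differences between -0.85 and -0.67 and adjusted p up to 0.0298.

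Slc6a12, which carries betaine and GABA, is the next coding gene to Slc6a13 in the reference gene table. It had values of 1.33, 1.33, 1.14 and 1.02 in NaPB rats, against 1.24, 1.68, 1.58 and 1.41 in control rats. Control rat 1 lay within the NaPB range, and the gene did not pass, at -0.29 ± 0.13 (adjusted p = 0.179). Whether the changes of these neighbours differ was not tested. Slc6a6, the main taurine carrier, had values of 0.880, 0.653, 0.859 and 0.795 in NaPB rats, against 1.07, 0.823, 0.930 and 1.70 in control rats. Control rat 4 stood highest, control rat 2 lay within the NaPB range, and the difference was -0.46 ± 0.21 (adjusted p = 0.214).

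The glycine carrier Slc6a9 gave a difference of the opposite sign, with values of 0.261, 0.317, 0.184 and 0.343 in NaPB rats, against 0.117, 0.187, 0.207 and 0.192 in control rats. NaPB rat 3 lay within the control range, and the gene did not pass, at 0.65 ± 0.24 (adjusted p = 0.118). Its 4 features differed by 0.53 to 0.79. The creatine carrier Slc6a8 overlapped throughout, with values from 0.397 to 0.579 in NaPB rats and from 0.321 to 0.473 in control rats, at 0.10 ± 0.16 over 10 features. Slc6a11, a GABA carrier, lay at 0.0327 to 0.0454 in NaPB rats, while 7 of 8 control feature values were at the floor, which leaves no sized difference.

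Slc6a2, Slc6a17 and Slc6a18 did not pass, with differences from -0.11 to -0.03. Slc6a17 was close to the floor in all 10 features. Slc6a2 had 1 of 3 features above the floor in every rat, at 0.0591 to 0.116 in NaPB rats and 0.0715 to 0.190 in control rats. Slc6a18 had 2 of 3 features clear of the floor in every rat, at 0.107 to 0.243 in NaPB rats and 0.136 to 0.185 in control rats. Slc6a3, Slc6a7, Slc6a14, Slc6a15 and Slc6a19 were at the floor on every array. Slc6a4, Slc6a5 and Slc6a20 rose above it on some arrays but were not tested. Of the 17 Slc6a members, 9 were tested, and 1 fell. That is 11.1% called, against 10.5% of all genes tested.

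In the Slc1 family, Slc1a5, a sodium-coupled glutamine and neutral amino acid exchanger, had values of 0.122, 0.0794, 0.0860 and 0.0625 in NaPB rats, against 0.0664, 0.0714, 0.0692 and 0.0570 in control rats. NaPB rat 1 stood apart, NaPB rat 4 lay within the control range, and the gene did not pass, at 0.37 ± 0.19 (adjusted p = 0.242). Its features disagreed in size, at 0.19 and 0.55. Slc1a7, a glutamate carrier best known from retina, was at 0.06 ± 0.10, with 4 of 8 feature values at the floor in each diet. The glutamate carriers Slc1a1, Slc1a3 and Slc1a6 and the alanine and serine carrier Slc1a4 were above the floor on 1 to 3 arrays and were not tested.

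The proton-coupled carrier Slc36a1 of lysosomes had values of 0.0373, 0.0516, 0.0308 and 0.0314 in NaPB rats, against the floor, 0.0403, 0.0323 and 0.0332 in control rats, at 0.13 ± 0.17. Slc36a2, Slc36a3 and Slc36a4 were at the floor on every array. In the Slc43 family, Slc43a1, a carrier of branched-chain and other large neutral amino acids, had values of 0.482, 0.545, 0.378 and 0.586 in NaPB rats, against 0.406, 0.634, 0.446 and 0.462 in control rats. It overlapped throughout, at 0.03 ± 0.17. Slc43a2, a carrier of the same kind, had values of 0.0614, 0.0541, 0.0642 and 0.0506 in NaPB rats, against 0.0640, 0.0510, 0.0568 and 0.0660 in control rats. Its 2 features disagreed, at -0.32 and 0.22.

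Slc43a3, which in human cells carries purine nucleobases, had values of 2.17, 1.99, 1.75 and 2.02 in NaPB rats, against 2.22, 2.35, 2.49 and 2.26 in control rats. The diets were apart by a narrow margin, at -0.24 ± 0.09 (adjusted p = 0.117), and with arrays shifted to the same median the gene passed, at -0.30 (adjusted p = 0.0458). Slc43a1 lies close to it in the reference gene table, with 1 coding gene between them. Slc38a1 and Slc38a2 are direct neighbours there, as are Slc36a2 and Slc36a3, and Slc38a4 follows Slc38a2 after 1 coding gene. Slc38a1, Slc36a2 and Slc36a3 were not tested, so pairs with them could not hold 2 called genes. Of Slc43a1, Slc43a3, Slc38a2 and Slc38a4, none was called.

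Of the 58 members, 16 had every feature value at the floor in all 8 rats and 10 rose above it on too few arrays to be tested. Of the 32 tested, 22 had no value at the floor. The 19 of these that did not pass include 11 whose 95% interval lay inside a log2 difference of 0.5 in either direction, and 8 whose interval reached past it and so includes a difference of that size. The members without floor values had a median SD on the log2 scale of 0.22 among NaPB rats and 0.16 among control rats. For all genes tested it was 0.15 and 0.14. Those include genes with floor values, which can narrow the SD, so the sets are unlike.

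Genes around the transporters were read from 7 related lists, which share some members. The mitochondrial and other carriers had 10 tested members, of which 1 fell and none rose, with a median difference of -0.05. That is 10% called, near the 10.5% of all genes. The one that fell was Slc25a22, the mitochondrial glutamate carrier, with values of 2.94, 3.14, 3.29 and 3.56 in NaPB rats, against 4.70, 5.45, 6.62 and 5.12 in control rats, a difference of -0.75 ± 0.12 (adjusted p = 0.00528). All NaPB values lay below all control values. Of 11 tested partners that bind or regulate these transporters, none passed by limma, and 3 were at an unadjusted p under 0.05. Of all genes tested, 10.5% passed and 26.8% were at that unadjusted p.

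Genes that sense amino acids for mTORC1 gave 2 higher and none lower of 23 tested, with a median of 0.06. That is 8.70% called, against 10.5% of all genes. They were Lamtor1, part of the lysosomal anchor of mTORC1, at 0.36 ± 0.09, and Eif4ebp1, a translation repressor that mTORC1 inactivates, at 0.56 ± 0.10. The call of Lamtor1 was lost without any array other than NaPB replicate 3 (adjusted p up to 0.110). Among targets of ATF4, the transcription factor of the amino acid shortage response, 7 of 31 tested were higher and 2 lower. That is 29.0% called, against 10.5% of all genes, although the median was 0.04.

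Psat1, an enzyme of serine synthesis, had values of 0.332, 0.650, 0.416 and 0.602 in NaPB rats, against 0.121, 0.0926, 0.120 and 0.219 in control rats, a difference of 1.88 ± 0.29 (adjusted p = 0.00574). Asparagine synthetase, Asns, had values of 0.259, 0.327, 0.167 and 0.314 in NaPB rats, against 0.0674, 0.0626, 0.148 and 0.0728 in control rats. Trib3, an inhibitor in that response, and Atf3, a stress transcription factor, rose by folds of 2.84 and 2.32. Of the 7 targets that rose, Asns, Atf3 and Pycr1 had their lowest NaPB value in NaPB rat 3 and their highest control value in control rat 3. So did Slc3a2, which is itself an ATF4 target. For Atf3, control rat 3, at 0.0861, barely topped control rat 2, at 0.0857. Trib3 was lowest in NaPB rat 3 but highest in control rat 2, and Psat1 and Eif4ebp1 shared neither extreme. Ddit3 went the other way, with its highest NaPB value, 3.40, in NaPB rat 3 and its lowest control value, 2.05, in control rat 3. These rats are different animals, and NaPB rat 3 was the lowest NaPB rat in 31.9% of all genes tested. Atf5, a transcription factor of the same response, and Psph, a further serine synthesis enzyme, fell by 0.91 ± 0.18 and 0.54 ± 0.14. Atf4 itself missed the threshold, at 0.25 ± 0.08 (adjusted p = 0.0858). The calls of Ddit3 and Pycr1 held in 1 and 2 of 8 single omissions. Without NaPB replicate 1, 2 or 4 or control replicate 1 the call of Atf3 was lost (adjusted p up to 0.0583), as was that of Psph without any array other than NaPB replicate 2 and control replicate 4 (up to 0.0899).

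Enzymes of glutamine, glutamate and glycine gave 2 higher and 6 lower of 27 tested, with a median of -0.12. That is 29.6% called, against 10.5% of all genes. Glul fell by 1.65 ± 0.18 and Oat, which turns ornithine toward glutamate, fell by 1.80 ± 0.16. Prodh, which oxidizes proline, fell by 0.95 ± 0.25, and Gnmt, which methylates glycine, fell by 0.73 ± 0.15. Aspa, which splits N-acetylaspartate, rose by 0.64 ± 0.16, and Asns by 1.65 ± 0.31. The glutaminase of liver, Gls2, missed the threshold, at -0.42 ± 0.18 (adjusted p = 0.184). The calls of Gnmt (without control replicate 2, adjusted p = 0.0527), Prodh (without any array other than NaPB replicate 3 and control replicate 3, up to 0.108) and Aspa (without NaPB replicate 1, 2 or 4 or control replicate 3 or 4, up to 0.0821) were lost.

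Enzymes of arginine and branched-chain amino acids gave 1 higher and 1 lower of 24 tested, with a median of -0.09. That is 8.33% called, against 10.5% of all genes. Cps1, the entry enzyme of the urea cycle, fell by 0.63 ± 0.09, and Hibch, of valine breakdown, rose by 0.55 ± 0.07. Of 12 tested enzymes of taurine, betaine and creatine, 3 fell and none rose, with a median of -0.18. That is 25% called, against 10.5% of all genes called in either direction and 4.29% called lower. Cdo1, which starts taurine synthesis from cysteine, had values of 4.02, 4.00, 4.16 and 3.39 in NaPB rats, against 5.25, 6.48, 7.16 and 6.31 in control rats, a difference of -0.69 ± 0.11 (adjusted p = 0.00689). Baat, which joins taurine or glycine to bile acids, fell by 0.61 ± 0.08, and Dmgdh, of betaine breakdown, fell by 0.54 ± 0.13. The taurine synthesis enzyme Csad missed the threshold, at 0.53 ± 0.24 (adjusted p = 0.195). The call of Dmgdh was lost without any array other than control replicate 3 (adjusted p up to 0.0874).

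**Figure D4:**
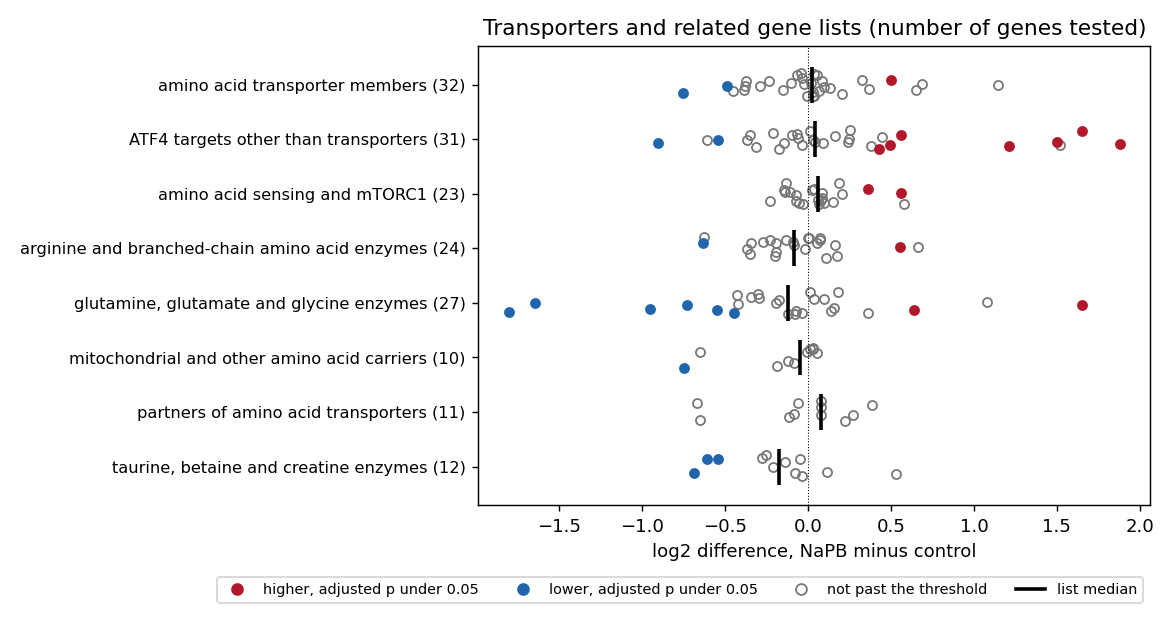
Log2 difference between NaPB and control rats (x axis) of each tested gene in the transporter families and in 7 related lists (y axis, number of genes tested in brackets), with the list median as a vertical bar. The ATF4 list holds 7 genes that rose (red) and 2 that fell (blue), and the glutamine, glutamate and glycine list 2 that rose and 6 that fell.

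Markers of other liver cells were measured in the same arrays. For the counts that follow, 6.16% of all genes tested were higher and 4.29% lower. Each sum leans on its brightest markers. All 6 tested markers of dividing cells rose, with a summed intensity of 1.26 to 2.63 in NaPB rats, against 0.307 to 0.446 in control rats. Top2a and Ccnb1, which act in mitosis, had no control value above the floor and so entered the test through the NaPB rats alone. Kupffer cell markers summed to 53.8 to 70.1 in NaPB rats and 58.2 to 68.0 in control rats, and 1 of 8 fell (list median -0.08). Stellate cell markers summed to 5.37 to 6.15 in NaPB rats and 6.69 to 9.76 in control rats, and 3 of 8 fell (list median -0.34). Most of that sum was Col3a1, at 3.81 to 4.41 in NaPB rats and 4.66 to 7.02 in control rats. Endothelial markers summed to 14.7 to 16.8 in NaPB rats and 18.2 to 20.7 in control rats, with a list median of -0.03. The 1 of 7 that fell was Kdr, at a mean of 9.61 in NaPB rats, against 12.7 in control rats. Periportal markers summed to 209 to 265 in NaPB rats and 284 to 339 in control rats, with 1 of 8 lower (list median -0.37). Bile duct markers summed to 0.915 to 1.09 in NaPB rats and 0.425 to 0.512 in control rats, with 1 of 4 tested higher. That was Epcam, at 0.619 to 0.848 in NaPB rats and 0.227 to 0.279 in control rats. Lymphocyte markers summed to 0.692 to 0.745 in NaPB rats and 0.671 to 0.793 in control rats, with 1 of 5 tested lower. Hepatocyte markers summed to 1157 to 1323 in NaPB rats and 1370 to 1533 in control rats, with 1 of 8 higher and 1 lower. The part of these shifts in the changes of Slc3a2, Slc38a3 and Slc6a13 was not tested.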

How the data were processed

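The deposited values look like linear Cy3 spot intensity scaled by a constant on each array. Per the submitters' processing notes, the authors used Agilent Feature Extraction 10.7. How background, flags and scaling were handled is not given in the sources used here. Of 62976 features, 45904 carried 1 symbol, and 17072 without one were left out. Arrays were scaled to the 75th percentile over named features, floored at 0.03, turned to log2 and averaged per gene. Genes that exceeded the floor on 3 or more arrays of either group were fitted with limma 3.58.1 (lmFit and eBayes, two-sided) in R 4.3.3, on 4 NaPB and 4 control arrays, with Benjamini-Hochberg adjustment over 10944 genes. The fit was tested on simulated data. No 2 arrays were identical, and no slide or date was given, so batches were not tested.

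Members, lists, tests and settings were chosen with earlier results of these data known. Named genes were all members, with values per rat for called members, the 10 brightest and a written set of carriers, and up to 6 called genes per related list. Beyond these, the called ATF4 targets Ddit3 and Pycr1 are named for the order of their rats. The reference gene table, of a Rattus rattus assembly, held 51 of the 58 symbols and served only for gene order. Alternatives covered scaling, floor, filter, feature summary, variance model, a replicate block and single omissions. Figures were drawn with matplotlib 3.10.9.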

Additional observations from a re-analysis of the deposited data

Results flagged for a closer look

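The groups of 4 rats were checked in each diet for the 32 tested members. In them, 2 values stood far from the other 3 by Dixon's criterion. Chance meets it in about 1 of 20 groups, so some such values can arise by chance over that many groups. Slc7a7 was at 0.0701 in NaPB rat 3, while the other NaPB rats lay between 0.0306 and 0.0333, and a single feature carried it, with a value of 0.164. Slc38a9 was at 0.112 in control rat 3, while the other control rats lay between 0.0954 and 0.0968. Groups with a gene value at the floor were left out of this check, since such values have no order.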

How the results depend on the processing

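The fall of Slc6a13 kept its direction and stayed past the threshold in all 17 alternatives. The rise of Slc3a2 and the fall of Slc38a3 kept direction in all 17 but passed in 9 and 10. Members higher with NaPB (1 in the fit reported) numbered 0 without a filter on dim genes and 0 with the replicate block (4 and 6 at an unadjusted p under 0.05 in limma), 2 with the brightest feature per gene, 2 with array weights, and 0 to 3 when single arrays were left out. Members lower with NaPB (2) numbered 1 without the filter, 1 with the block, and 1 to 2 with single arrays left out. All genes changed (1144) numbered 739 without the filter, 583 with the block and 625 to 980 with single arrays left out (698 without control replicate 1 and 625 without control replicate 2). Genes changed in the related lists (23) numbered 11 without the filter and 14 with the block. Without the filter more genes are tested (16945), and with the block fewer degrees of freedom remain. Replicate numbers belong to different animals, and same-numbered arrays deviated from their group means with correlations of 0.08, 0.06, -0.13 and -0.07. Differently numbered arrays gave -0.20 to 0.27, so these values show no sign of pairing by number. They cannot exclude a shared slide or day. Of the 29 members not past the threshold, 13 changed sign under some alternative, with sizes up to 0.22, and 4 passed under at least 1: Slc3a1, Slc38a4, Slc43a3 and, without NaPB replicate 3, Slc7a4, the size of whose difference the floor sets. The signal of the 26 untested members did not rise far enough above background for a comparison.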

Other observations

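Among the 22 members with no value at the floor, NaPB rat 3 was the lowest of the 4 NaPB rats in 12, among them Slc3a2, Slc3a1, Slc38a2, Slc38a3, Slc6a9 and Slc6a13. NaPB rats 1, 2 and 4 were lowest in 0, 3 and 7. Over all 10944 genes tested, NaPB rat 3 was lowest in 31.9%, against 19.7%, 18.1% and 30.3% for NaPB rats 1, 2 and 4. Among the control rats, the lowest value of the same 22 members fell to rats 1, 2, 3 and 4 in 6, 5, 4 and 7 cases.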
